A study of Mus musculus with 8 samples.

Results

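Collagens and the other genes of the stromal matrix were followed in RNA-seq of mouse pancreatic islets. The genes were taken by name: every collagen chain in the tables (30 genes) and 27 matrix, fibroblast and mural-cell genes from a named list of 28, giving 57 of the 16333 genes measured. Among them, Dcn, Postn, Pdgfra, Col6a1, Cyp1b1, Abca8a and Igfbp4 are described most closely. Of the 72 genes that the names cover, 15 were not in the tables, 14 of them collagen chains such as Col2a1 and Col4a3, and 1 the fibroblast transcription factor gene Tcf21. The smallest mean in the tables was 23.2 normalized counts, so low genes had been removed before deposit, and 9 of the 57 genes had a mean under 50.

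NFATc2 is a transcription factor that moves to the nucleus when the phosphatase calcineurin responds to calcium. In the knockout mice (NFATc2βKO, here KO) tamoxifen given to adults deleted it in the insulin-expressing cells, so other cells of the islet keep the gene. Wild-type mice (WT) also received tamoxifen, with no gene deleted, and the strain of all 4 mice was Agouti/C57BL6. Hand-picked islets spent a night in 5.5 mM glucose, and those of each mouse were then divided into 2 cultures. The cytokine culture lasted 2 h at 11 mM glucose and contained 5 ng/mL of IL1β, 10 ng/mL of TNFα plus 50 ng/mL of IFNγ, while the other stayed untreated for 2 h. The groups were thus KO with cytokines, KO untreated, WT with cytokines and WT untreated, with 2 libraries each. The labels do not state the glucose of the untreated cultures in those 2 h, and the cytokines and the 11 mM glucose, given together, cannot be told apart.

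Collagens are the main structural proteins of the extracellular matrix. Fibrillar collagens form the cables of connective tissue, type IV collagen forms the sheet of basement membranes under endothelial and epithelial cells, and small proteoglycans such as decorin regulate fibril growth. In the pancreas this matrix is made chiefly by fibroblasts, stellate cells and mural cells, which lie around islets and along their vessels, whereas mouse beta cells take their basement membrane from endothelial cells.

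Sequence is shown upstream of 3 of the 6 genes that the authors called higher in untreated KO islets. It is shown because GGAAA is the core that NFAT proteins bind. Of the other called genes, Dcn and Col5a2 had no upstream sequence in the set used, and that of Lox is not shown. Each run holds the 250 bases before a RefSeq transcription start on GRCm38.p6, read 5′ to 3′ on the strand of the gene, with GGAAA or its reverse complement TTTCC in capitals. The regions are chr17:79715062-79715311, minus strand, for Cyp1b1, chr3:54360857-54361106, plus strand, for Postn, and chr11:110095938-110096187, minus strand, for Abca8a.
Cyp1b1: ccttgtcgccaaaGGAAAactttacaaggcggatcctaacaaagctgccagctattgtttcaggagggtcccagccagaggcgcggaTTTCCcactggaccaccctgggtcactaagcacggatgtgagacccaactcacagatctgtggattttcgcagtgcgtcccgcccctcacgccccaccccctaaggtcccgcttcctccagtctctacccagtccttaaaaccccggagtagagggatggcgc
Postn: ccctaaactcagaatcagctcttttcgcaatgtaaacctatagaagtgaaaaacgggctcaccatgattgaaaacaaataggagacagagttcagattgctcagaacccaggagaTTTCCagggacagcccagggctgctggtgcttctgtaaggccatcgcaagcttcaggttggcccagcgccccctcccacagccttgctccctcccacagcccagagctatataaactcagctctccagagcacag
Abca8a: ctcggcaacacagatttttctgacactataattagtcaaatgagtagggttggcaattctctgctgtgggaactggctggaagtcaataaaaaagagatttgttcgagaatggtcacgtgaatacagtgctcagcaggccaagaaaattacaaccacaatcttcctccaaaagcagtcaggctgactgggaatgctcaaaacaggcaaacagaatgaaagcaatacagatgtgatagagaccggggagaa
The GGAAA core was found 2 times upstream of Cyp1b1, 1 time upstream of Postn and 0 times upstream of Abca8a in these windows. RefSeq lists another Postn start (window chr3:54359017-54359266, plus strand), with 0 cores, so the count for Postn depends on the start. The set used held 45 such RefSeq starts for 42 of the 57 genes, and 42.2% of these starts carried the core on either strand. Of all 32851 starts in the set, 55.6% did. The GC box GGGCGG stood in 55.6% of the starts of the 57 genes and in 32.7% of all starts, and the TATA letters TATAAA in 13.3% and 12.4%. Cyp1b1 also held 1 GCGTG, the core of the element bound by the aryl hydrocarbon receptor, found in 31.1% of the starts of the 57 genes and 28.2% of all starts. These matches describe letters in the window and were not tested against binding.

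The authors deposited group means, from which the whole reads of each library were recovered for 16309 genes, including all 57 members. The 8 libraries held 14388620 to 26582073 reads. Each group held 1 library with at most 37 reads and 1 with at least 7516 reads over 4 Y-linked genes, here called the female and the male library, and within a genotype these also tell its mice apart. Nfatc2 had 987 and 899 normalized counts in KO female and male islets with cytokines, 1167 and 842 in KO untreated, 1646 and 1144 in WT with cytokines and 1557 and 1270 in WT untreated, with no call between genotypes in the authors' deposited tables (FDR 0.474 with cytokines and 0.903 untreated). With 2 mice per genotype an exact permutation test cannot go below p = 0.333, so calls rest on spread shared across genes. The WT female library with cytokines stood apart from the other WT libraries for matrix genes. The order of libraries with cytokines is given with and without it, and the WT changes of some genes are given mouse by mouse. Other results for WT with cytokines include it unless stated. In whole islets, fewer stromal cells and less RNA per cell cannot be told apart.

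**Figure D1:**
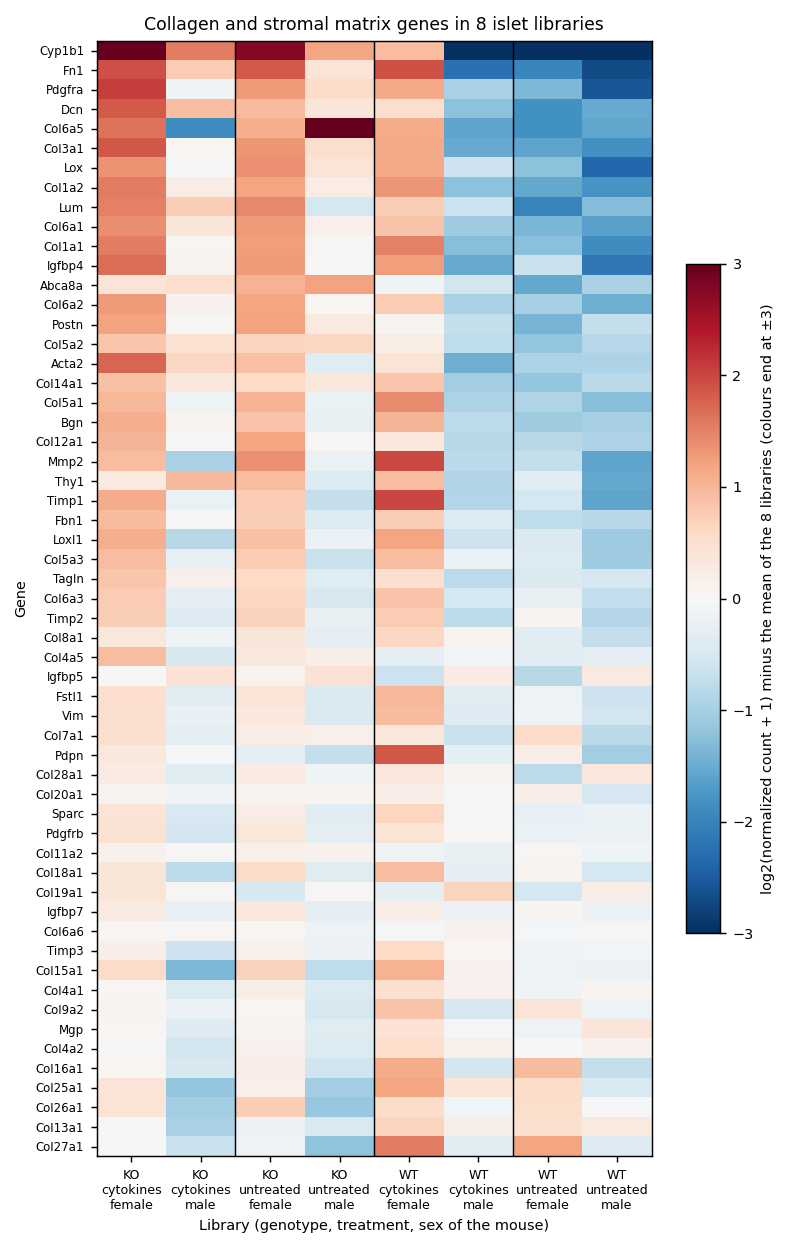
Heat map of the 57 genes (down) in 8 libraries (across), as log2(normalized count + 1) minus the mean of each gene over the libraries, red above and blue below, sorted by the mean of the KO libraries minus that of WT untreated. Most of the upper genes, from Cyp1b1 to Mmp2, are red in both KO female libraries and the WT female library with cytokines and blue in the remaining WT libraries.

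In untreated islets 6 of the 57 genes were higher in KO than in WT by the authors' calls and none was lower. The authors called these 6 at an FDR below 0.05, where 0.41% of all 16333 genes were called in either direction. The 6 were Dcn, Col5a2, Postn, Cyp1b1, Lox and Abca8a, at 3.18-fold to 51-fold in the authors' deposited table. Col5a2 is the only collagen chain among them. Members were chosen with earlier results of these data known, so the share over all genes is a backdrop and no test of the set. Over the 57 genes the median log2 fold change was 0.65 with 45 positive, beside -0.004 with 8000 of 16333 positive over all genes. Both KO libraries lay above both WT libraries for 28 of the 57 genes, an order that 18.6% of all genes showed, and below them for 1 gene, Col13a1, an order that 18.3% of all genes showed.

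Among the fibrillar collagens, Col5a2, a chain of type V collagen that starts and narrows type I fibrils, was the called gene (ENSMUSG00000026042, chromosome 1, 45374321 to 45503282, minus strand, GRCm38). It had 1530 and 1475 normalized counts in the KO female and male, against 417 and 527 in the WT female and male. The means were 1503 ± 39.1 and 472 ± 77.6 (SD, n = 2 each), and the KO values lay close together and well above the WT values. The log2 fold change was 1.67 (FDR 4.07e-05, SE 0.30) in the authors' deposited table.

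Col1a1 and Col3a1, the main chains of type I and type III collagen, did not pass the authors' threshold. Col1a1 had 3096 and 1323 normalized counts in the KO female and male, against 542 and 353 in WT (log2 2.30, FDR 0.847, SE 1.07 in the authors' deposited table). Col3a1 had 3402 and 1951 in KO, against 455 and 382 in WT (log2 2.68, FDR 0.473, SE 1.04 in the authors' deposited table). For both genes the KO libraries lay above the WT libraries, and the KO female lay well above the KO male. Of the 8 fibrillar chains 7 were positive, with a median log2 fold change of 1.65, and Col27a1 was the negative one. Col27a1, a cartilage-type fibrillar chain, had 413 and 194 normalized counts in KO and 1020 and 347 in WT, overlapping ranges (log2 -1.17, SE 0.88 in the authors' deposited table).

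Among proteoglycans and matrix glycoproteins the authors called 2 of 9 genes. Dcn encodes decorin, a proteoglycan that binds collagen fibrils (ENSMUSG00000019929, chromosome 10, 97479609 to 97518143, plus strand). It had 304 and 203 normalized counts in the KO female and male and 43.9 and 55.0 in WT. The means were 253.5 ± 72.0 and 49.4 ± 7.88 (SD, n = 2 each). Its KO and WT ranges were separate, and the log2 fold change was 2.36 (FDR 0.00605, SE 0.54) in the authors' deposited table. Postn encodes periostin, a glycoprotein that links collagen to integrins (ENSMUSG00000027750, chromosome 3, 54361109 to 54391037, plus strand). It had 503 and 265 normalized counts in KO and 82.4 and 131 in WT, again without overlap. The log2 fold change of Postn was 1.85 (FDR 0.0339, SE 0.48) in the authors' deposited table.

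Fn1, which encodes fibronectin, showed a wide span without a call. It had 3024 and 1107 normalized counts in the KO female and male, against 217 and 131 in WT (log2 3.57, FDR 0.391, SE 1.31 in the authors' deposited table). Lum, for the proteoglycan lumican, rested on few reads, 75 and 22 in KO and 4 and 8 in WT. Mgp, which encodes a calcification inhibitor that vascular cells also make, was the negative member of this group at -0.26 (SE 0.29) in the authors' deposited table.

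Of 6 genes for crosslinking and turnover of matrix, all were positive and 1 was called. Lox encodes lysyl oxidase, which crosslinks collagen and elastin (ENSMUSG00000024529). It had 222 and 112 normalized counts in KO and 35.9 and 16.1 in WT, with a log2 fold change of 2.69 (FDR 0.0339, SE 0.70) in the authors' deposited table. Mmp2, a gelatinase that fibroblasts secrete, had 140 and 45.8 normalized counts in KO and 31.9 and 17.2 in WT (log2 1.92, FDR 0.903, SE 0.92 in the authors' deposited table). The inhibitors of metalloproteinases Timp1, Timp2 and Timp3 had log2 fold changes of 1.17, 0.62 and 0.10 in the authors' deposited table, none called, and their KO and WT ranges overlapped.

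Type VI collagen, a network around cells, is built from Col6a1, Col6a2 and a longer chain such as Col6a3. Col6a1 (ENSMUSG00000001119, chromosome 10, 76708792 to 76726168, minus strand) had 653 and 300.2 normalized counts in the KO female and male, against 104 and 87.1 in WT. The KO range lay above the WT range, yet the log2 fold change of 2.32 (SE 0.82, FDR 0.333) did not pass in the authors' deposited table. Col6a2 stood at 1.94 (SE 0.56, FDR 0.0936) and Col6a3 at 0.65 (FDR 1, SE 0.72) in the authors' deposited table. Col6a6, another long chain, had 3188 and 2795 normalized counts in KO and 3007 and 3178 in WT, so its ranges overlapped. Col6a5 had 30 and 138 reads in KO and 2 and 3 in WT, and no fold change is given against so few reads.

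The receptor gene Pdgfra, which marks fibroblasts and binds platelet-derived growth factor (ENSMUSG00000029231, chromosome 5, 75152292 to 75198215, plus strand), had 243 and 147 normalized counts in the KO female and male. In WT it had 38.6 and 16.1, and the log2 fold change was 2.84 (FDR 0.457, SE 1.09) in the authors' deposited table. Its KO range lay above its WT range. Pdgfrb, the receptor of pericytes and other mural cells, had 658 and 422 normalized counts in KO and 455 and 460 in WT, and its log2 fold change was 0.24 (SE 0.34) in the authors' deposited table.

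Cyp1b1 and Abca8a were both called. Cyp1b1 encodes a cytochrome P450 enzyme of steroids and xenobiotics found in mesenchymal cells (ENSMUSG00000024087, chromosome 17, 79701537 to 79715061, minus strand). It had 429 and 143 normalized counts in the KO female and male, against 6.65 and 4.58 in WT, which were 482 and 193 reads against 5 and 4. The log2 fold change of 5.67 (FDR 0.0373, SE 1.48) in the authors' deposited table was the largest of the 57 genes, and its size rests on those few WT reads. Abca8a encodes a lipid transporter of the ABC family (ENSMUSG00000041828, chromosome 11, 110025634 to 110095978, minus strand). It was low throughout, with 44.5 and 50.3 normalized counts in KO and 6.65 and 10.3 in WT, and a log2 fold change of 2.47 (FDR 0.0408, SE 0.65) in the authors' deposited table. Unlike Cyp1b1, it had a slightly lower value in the KO female than in the KO male.

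Igfbp4 encodes a secreted binding protein of insulin-like growth factors (ENSMUSG00000017493, chromosome 11, 99041244 to 99054392, plus strand). It had 295 and 118 normalized counts in the KO female and male and 75.8 and 26.4 in WT, with a log2 fold change of 2.02 (FDR 1, SE 1.17) in the authors' deposited table. Both KO libraries lay above both WT libraries, but the female library was over 2 times the male library within each genotype. Igfbp5 had the highest mean of the 57 genes and went the other way by sex, with 11260 and 14150 normalized counts in KO and 5902 and 12520 in WT. Igfbp7 varied little, with 1867 and 1244 in KO and 1590 and 1319 in WT.

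**Figure D2:**
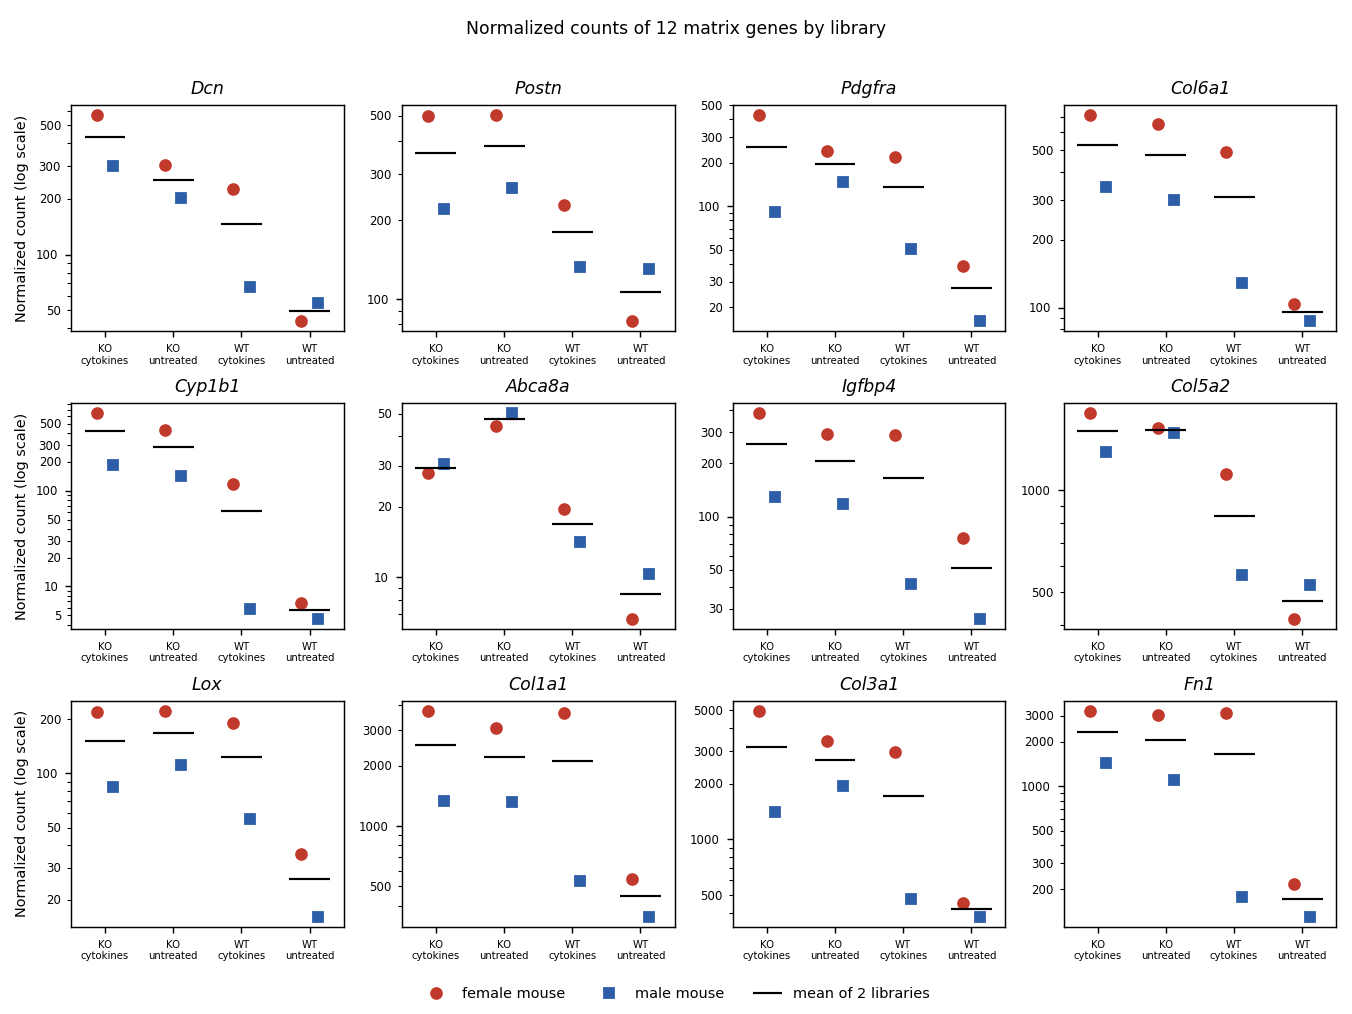
Normalized counts on a log axis for 12 genes in the 4 groups, with a red circle for the female mouse, a blue square for the male mouse and a bar at the mean of both libraries. In WT untreated islets all 12 genes are low in both mice, and with cytokines the WT female point lies within the KO range for 8 of the 12 genes, while the WT male point lies below it for 12 of 12.

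The untreated calls depended on how the mice were modelled. A limma fit on log2(normalized count + 1) without a block called 0 of the 57 genes, and 2 of all 16309, at an adjusted p below 0.05, and it also called 0 of the 57 in each other comparison. With the sex of the mouse as replicate block, limma called 13 of the 57 genes higher and 0 lower, beside 2.1% of all genes. These were Col1a1, Col1a2, Col3a1, Col5a2, Col6a1, Col6a2, Col12a1, Cyp1b1, Abca8a, Dcn, Igfbp4, Lox and Pdgfra. Lox had the smallest adjusted p in that limma fit (log2 2.66, SE 0.22, adjusted p 0.00506), while Postn missed it (log2 1.81, SE 0.39, adjusted p 0.0686). Untreated and treated islets of 1 mouse enter these fits as separate libraries, so their p-values are too small.

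With cytokines, the authors called 0 of the 57 genes between KO and WT, where 0.998% of all genes passed, and limma with the sex of the mouse as replicate block called 2. Unadjusted, 7 of the 57 had a p below 0.05 in the authors' deposited table, beside 960 of all 16333 genes. The median log2 fold change was 0.02, with 30 of 57 positive, beside -0.003 over all genes. Dcn came nearest, with 566 and 301 normalized counts in the KO female and male, against 227 and 66.7 in WT (log2 1.57, FDR 0.157, SE 0.52 in the authors' deposited table). Col5a2 had 1691 and 1301 in KO and 1121 and 564 in WT (log2 0.83, FDR 0.234, SE 0.30 in the authors' deposited table). For both genes the KO range stayed above the WT range.

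Both KO libraries lay above both WT libraries for 7 of the 57 genes with cytokines, a smaller share than the 14.7% of all genes. These were Abca8a, Acta2, Col11a2, Col5a2, Cyp1b1, Dcn and Lum, so the order is no excess among the members. All 7 were also among the 28 genes in that order untreated. Without the WT female library the count was 32 of 57, beside 35% of all genes, an order then set by 1 WT library alone. Postn, Pdgfra, Col6a1 and Igfbp4 lost the order in the comparison of all 4 libraries. Postn had 499.9 and 221 normalized counts in KO and 229 and 133 in WT, where the KO male lay just under the WT female. Pdgfra had 428 and 91.7 in KO and 221 and 50.8 in WT. Igfbp4 had 386 and 129 in KO and 289 and 41.7 in WT, so the KO male again lay under the WT female.

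Limma with the sex of the mouse as replicate block called Cyp1b1 higher and Col13a1 lower with cytokines, 2 of the 57 genes beside 3.75% of all genes. Cyp1b1 had 647 and 185 normalized counts in KO with cytokines and 118 and 5.83 in WT with cytokines (limma log2 3.60, SE 0.72, adjusted p 0.0394). Col13a1, a collagen that spans the cell membrane, had 188 and 96.8 in KO and 304 and 214 in WT (limma log2 -0.91, SE 0.19, adjusted p 0.0477). Neither was called in the authors' deposited table, at FDR 0.857 and 0.441.

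The basement membrane chains Col4a1 and Col4a2 were lower in KO with cytokines, without a call. With cytokines Col4a1 had 3966 and 2870 normalized counts in the KO female and male, against 5364 and 4203 in WT (log2 -0.48, FDR 0.734, SE 0.23 in the authors' deposited table). Col4a2 had 2574 and 1773 in KO, against 3775 and 2892 in WT (log2 -0.62, FDR 0.375, SE 0.24 in the authors' deposited table). Both KO libraries lay below both WT libraries for these genes and for Col13a1, 3 of the 57, a smaller share than the 14.2% of all genes. Col4a1 and Col4a2 are transcribed from opposite strands and overlap in the annotation, but their annotated spans share only 22 bases. Untreated, the ranges of both genes overlapped, with 4298 and 2896 in KO and 3543 and 4053 in WT for Col4a1.

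**Figure D3:**
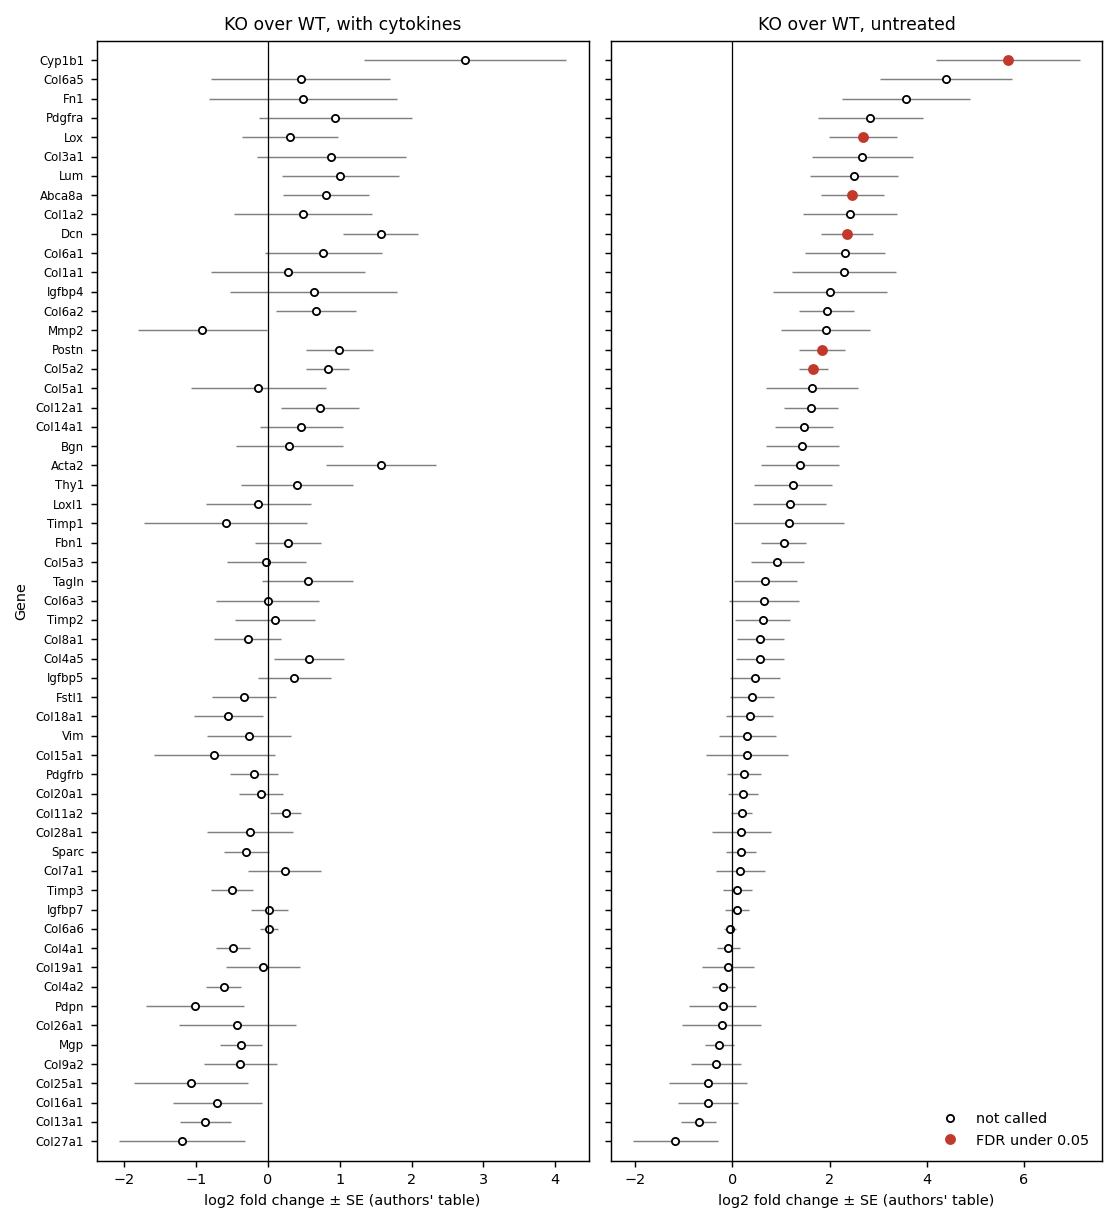
Deposited log2 fold change of KO over WT with its standard error for each of the 57 genes, with cytokines on the left and untreated on the right, sorted by the untreated value, filled red where the authors' FDR is below 0.05. Untreated, 45 genes lie right of 0 and 6 are called, whereas with cytokines 30 lie right of 0 and 0 are called.

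The response to cytokines was tested within each genotype. The deposited SEs of this response appear not to use the pairing of cultures by mouse. Fn1 in KO had an SE of 1.42 in the authors' deposited table, with log2 changes of 0.10 and 0.37 in the KO female and male. Limma with the mouse as replicate block gave an SE of 0.60 for it. Few calls in the deposited tables therefore do not show a lack of response. In KO islets the authors called 0 of the 57 genes, beside 0.0429% of all genes, and 0 had an unadjusted p below 0.05, beside 166 of all 16333 genes. The median log2 fold change was 0.07, with 32 of 57 positive. Dcn had the smallest p in KO, with 566 and 301 normalized counts with cytokines, against 304 and 203 untreated (log2 0.77, FDR 1, SE 0.59 in the authors' deposited table). Abca8a had 27.9 and 30.6 with cytokines and 44.5 and 50.3 untreated, lower in both KO mice (log2 -0.70, FDR 1, SE 0.64 in the authors' deposited table). Acta2, the smooth muscle actin of contractile mural cells and activated fibroblasts, had 108 and 49.3 with cytokines and 59.6 and 24.4 untreated, higher in both KO mice (log2 0.91, FDR 1, SE 0.86 in the authors' deposited table).

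In WT islets the authors likewise called 0 of the 57 genes, beside 0.0122% of all genes, although 13 had an unadjusted p below 0.05, beside 150 of all 16333 genes, and 54 of 57 were positive, beside 8306 of 16333. The median log2 fold change was 0.82, beside 0.003 over all genes. Lox had 190 and 55.8 normalized counts in the WT female and male with cytokines, against 35.9 and 16.1 untreated (log2 2.24, p = 0.00452, FDR 1, SE 0.79 in the authors' deposited table). Col6a1 had 493 and 129 with cytokines, against 104 and 87.1 untreated (log2 1.72, FDR 1, SE 0.65 in the authors' deposited table). Pdgfra had 221 and 50.8 with cytokines, against 38.6 and 16.1 untreated (log2 2.30, FDR 1, SE 0.88 in the authors' deposited table). In each of these genes the change was larger in the female than in the male mouse.

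Read mouse by mouse, the WT response lay mostly in the female. There 33 of the 57 genes were at least 2-fold higher with cytokines, beside 1.94% of all genes, and the median log2 change was 1.19. In the WT male 2 genes were, Lox and Pdgfra, beside 0.484% of all genes, and the median was 0.21. In the KO female it was 0 genes beside 0.779% of all genes with a median of 0.11, and in the KO male 2 genes, Lum and Thy1, beside 1.4% with a median of -0.003. Cyp1b1 was 17.8-fold higher with cytokines in the WT female, at 118 against 6.65 normalized counts (109 reads against 5), and 1.27-fold in the WT male. Fn1 was 14.5-fold higher in the WT female, at 3145 against 217, and 1.36-fold in the WT male. The fibrillar collagens Col1a1, Col1a2 and Col3a1 were 6.76-fold, 7.28-fold and 6.54-fold higher in the WT female and 1.51-fold, 1.45-fold and 1.25-fold higher in the WT male.

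Among the members higher with cytokines in both WT mice, Lox and Col5a3 are given because limma called them. Others were higher in both too, such as Pdgfra at 5.72-fold in the WT female and 3.17-fold in the WT male. Lox was 5.29-fold higher with cytokines in the WT female and 3.48-fold in the WT male, against 0.99-fold and 0.753-fold in the KO female and male. Col5a3, a minor chain of type V collagen, was 2.54-fold and 1.85-fold higher in the WT female and male. With the mouse as replicate block limma called these 2 genes in WT (Lox log2 2.06, SE 0.21, adjusted p 0.0273, and Col5a3 log2 1.11, SE 0.14, adjusted p 0.0387), beside 0.153% of all genes. In KO the same fit called 0 of the 57, beside 0.123% of all genes.

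The difference between the KO and WT responses was tested directly. At an adjusted p below 0.05, 0 of the 57 genes passed and 0% of all genes did. This test took the deposited SEs, which appear not to use the pairing by mouse, so 0 calls does not show equal responses. Unadjusted, 2 of the 57 genes had a p below 0.05, beside 36 of 16333. The response of Lox was -0.13 (SE 0.76) in KO and 2.24 (SE 0.79) in WT in the authors' deposited tables, a difference of -2.37 (SE 1.09, p = 0.0302, adjusted p 1). The response of Mmp2 was -0.55 (SE 1.01) in KO and 2.31 (SE 1.03) in WT in the authors' deposited tables, a difference of -2.85 (SE 1.45, p = 0.0484, adjusted p 1). Mmp2 was 6.6-fold higher with cytokines in the WT female and 1.74-fold higher in the WT male (36 reads against 15). Limma with the mouse as replicate block also called 0 of the 57 differences.

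**Figure D4:**
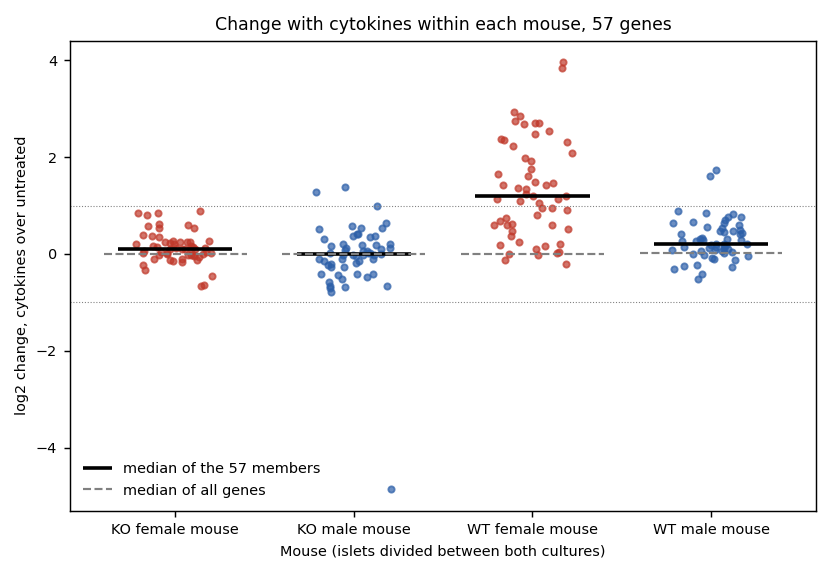
Log2 change with cytokines over untreated in each of the 4 mice, 1 point per gene, with a black bar at the median of the 57 genes and a dashed line at the median of all genes. The WT female points centre on 1.19 with 33 genes above 1, whereas the medians of the KO female, KO male and WT male are 0.11, -0.003 and 0.21.

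Sex divided the matrix genes in most groups. Female over male, the median log2 ratio of the 57 genes was 0.97 in KO with cytokines, 0.81 in KO untreated, 1.33 in WT with cytokines and 0.25 in WT untreated, with 1 mouse of each sex per genotype, so sex and mouse cannot be told apart. At least 2-fold higher in the female were 27, 22, 35 and 10 genes in these groups, beside 2.77%, 2.42%, 4.24% and 2.11% of all genes, whose median ratios lay between -0.006 and 0.013. Within the females the KO over WT median was 0.04 with cytokines and 1.03 untreated, and within the males it was 0.23 with cytokines and 0.45 untreated. In the females 5 genes were at least 2-fold higher in KO with cytokines and 29 untreated, beside 3.57% and 3.54% of all genes, and 4 and 1 were at least 2-fold lower. In the males 15 were at least 2-fold higher with cytokines and 19 untreated, beside 3.24% and 2.46% of all genes, and 3 and 1 were at least 2-fold lower.

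The summed level shows the same split by library. Over the 8 fibrillar collagens it was 14780 and 6067 normalized counts in the KO female and male with cytokines, 11756 and 6644 in KO untreated, 12817 and 2858 in WT with cytokines and 3297 and 2303 in WT untreated. The 6 basement membrane and network collagens held 8119 and 5195, 8839 and 5612, 11222 and 8188, and 7212 and 7766 in the same order. Fibrillar chains thus spanned a wider range than basement membrane chains over these libraries. As a share of all normalized counts the 57 genes made up 0.303% and 0.202% in KO with cytokines, 0.285% and 0.203% in KO untreated, 0.297% and 0.184% in WT with cytokines and 0.153% and 0.175% in WT untreated.

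Some members hardly varied or differed more by mouse than by culture. Col6a6, among the highest by mean, ranged from 2795 to 3388 normalized counts over all 8 libraries. Col11a2 ranged from 176 to 229, and Col20a1 from 116 to 191. Col16a1, a fibril-associated chain, had 338 and 106 in WT with cytokines and 300.4 and 94.0 in WT untreated, high in the WT female in both cultures. Per kilobase of exon, a scale on which levels of genes can be compared, Igfbp5 stood at 2041 normalized counts per kilobase in KO with cytokines, 2116 in KO untreated, 1584 in WT with cytokines and 1534 in WT untreated. Col1a1 stood at 388, 337, 320 and 68.2 per kilobase in these groups and Cyp1b1 at 71.2, 48.9, 10.6 and 0.962.

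Among genes that act with the matrix, calls were made only for KO over WT with cytokines. Of 25 genes for folding, modification and processing of collagen 0 were called in the 4 comparisons. Their untreated KO over WT median was 0.02 on the log2 scale. Of all genes, 0.998% were called for KO over WT with cytokines and 0.41% untreated. For the cytokine response the share was 0.0429% in KO and 0.0122% in WT, so 0 calls in so short a list says little. The same count of 0 held for 14 collagen and matrix receptors and for 13 laminin, nidogen and other basement membrane genes, of which 12 were negative for KO over WT with cytokines (median -0.49). Among the ligands, receptors and targets of TGF-β and PDGF, Eng, a TGF-β co-receptor of endothelial cells, was called lower in KO with cytokines at -1.18 (FDR 0.00094, SE 0.25) in the authors' deposited table. Thbs1, for thrombospondin, was called lower among 23 other matrix proteins and proteases at -0.74 (FDR 0.0236, SE 0.20) in the authors' deposited table.

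Markers of other cells also differed between the libraries. Endothelial markers were negative in 10 of 10 genes for KO over WT in both cultures, and 6 were called lower with cytokines (median log2 -0.81 with cytokines and -0.37 untreated, authors' deposited tables). Their summed level was 6353 and 5162 normalized counts in the KO female and male with cytokines, 6619 and 5857 in KO untreated, 10728 and 9647 in WT with cytokines and 8152 and 9406 in WT untreated. The 8 acinar markers, of the exocrine pancreas, summed to 114012 and 20158, 66470 and 28735, 25657 and 5055, and 56463 and 6879 in the same order, higher in the female of each pair, and the authors called 0. In the WT female they were lower with cytokines, whereas the matrix genes were higher.

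The 8 pericyte and smooth muscle markers summed to 1602 to 2337 normalized counts in every library, highest in the WT female with cytokines, and the 8 fibroblast markers outside the 57 genes to 3228 to 5523. The authors called 0 of either list, with untreated KO over WT medians of 0.30 and 0.30. Of 3 lymphocyte markers, the authors called 3 higher in KO with cytokines and 1 untreated, with summed levels of 285 and 217, 137 and 52.5, 17.4 and 19.2, and 16.0 and 11.5 in the same order. Of 7 macrophage markers the authors called Lyz2 alone, higher in KO in both cultures. With cytokines 6 of the 7 were positive for KO over WT (median log2 0.45), and untreated 7 were (median log2 0.76). These lists hold only markers that were in the tables, from which low genes had been removed, so none could be at 0 in every library. Ms4a1 was at 0 in the WT untreated male alone. The part of these cells in the matrix results was not tested.

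**Figure D5:**
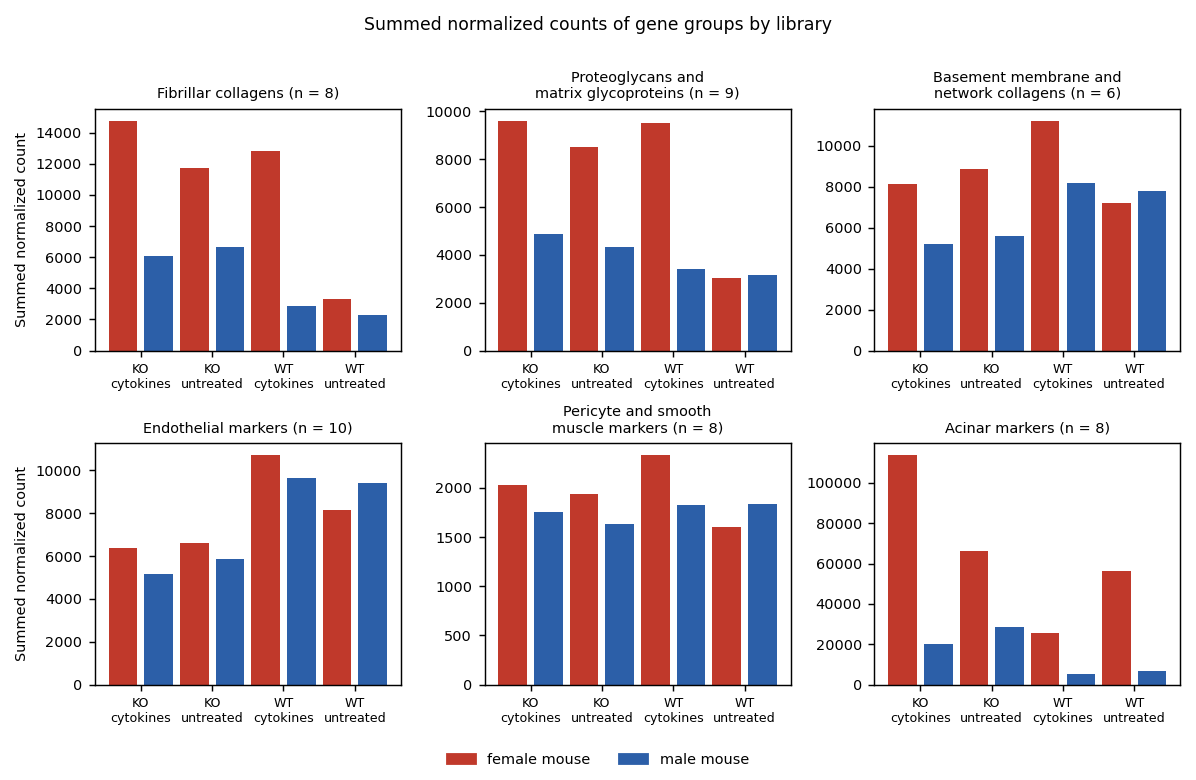
Summed normalized counts per library for 3 groups of matrix genes and 3 marker lists, from a baseline of 0, red for the female and blue for the male mouse. Fibrillar collagens reach 12817 in the WT female with cytokines against 3297 untreated, endothelial markers are lower in all KO libraries than in all WT libraries, and acinar markers are highest in the KO female with cytokines at 114012.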

How the data were processed

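RNA of mouse islets was sequenced in 8 libraries. Tools named in the submitters' processing notes were HISAT2, HTSeq and DESeq2, on build GRCm38, with no version. The authors deposited 4 comparison tables of 16333 genes whose signal columns hold mean normalized counts per group. The deposited tables give log2 fold changes, a Wald score, p-values and FDR; dividing each log2 fold change by the score gave the SE. The tables call 1 genotype Mut, read here as wild type, the remaining label. A further deposited column of linear fold was not used.

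A gene was called at the authors' FDR below 0.05. Each group mean combines whole reads of 2 libraries scaled by their size factors, and its 10 printed digits gave the reads of both libraries for 16096 genes, and the mean over all libraries for another 213 (99.9% in all). Recovery was tested on simulated data. Limma 3.58.1 in R 4.3.3 was fitted to log2(normalized count + 1) with mean-dependent variance. Treated and untreated libraries pair by mouse, per the labels' design. Sexes come from Y-linked genes; replicate numbers of the labels could not be tied to them. Differences of responses were divided by the root of summed squared SE. Sequences are from RefSeq (GRCm38.p6), gene positions from GENCODE M21. For strand, 7 members overlap a gene on the opposite strand.

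Named genes were Dcn, Postn, Pdgfra, Col6a1, Cyp1b1, Abca8a, Igfbp4, called members, the 3 smallest p-values per comparison and the 3 highest means; other members named were chosen after their values were seen. Members and lists were chosen with earlier results of these data known. For TGF-β and PDGF genes, 1 result is not reported here.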

Additional observations from a re-analysis of the deposited data

How the results depend on the processing

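Counts of called matrix genes moved most for untreated KO over WT. Of 6 calls at FDR below 0.05, 2 stood at FDR below 0.01, and limma gave 0 without a replicate block, 0 with a pseudocount of 4, 0 on total reads, 0 to 0 leaving out each library and 13 with the sex of the mouse as replicate block. That block gave 2 calls in place of 0 with cytokines, and the mouse as replicate block gave 2 in place of 0 for the WT response. At FDR below 0.1 Col6a2 (FDR 0.0936) joined the untreated calls, and a filter for a mean of at least 50 leaves out Abca8a, with a mean of 25.5. Outside the untreated comparison of KO and WT, no other count of calls moved. The 7 genes with KO above WT with cytokines became 32 without the WT female library, a setting chosen after seeing the data. Leaving out 1 library turned the sign of some uncalled log2 fold changes. For the KO response the range was -0.73 to 0.45 for Postn, -1.04 to 1.17 for Pdgfra, -0.40 to 0.72 for Col6a1, -0.42 to 1.38 for Cyp1b1 and -0.53 to 1.04 for Igfbp4. For KO over WT with cytokines it was -0.21 to 2.00 for Pdgfra and -0.37 to 2.39 for Igfbp4, and for the WT response of Igfbp4 -0.10 to 2.66. The cause was not tested. Of 336 values of the 7 closely described genes, 273 kept direction and call status, 45 lost the call, 4 gained it and 14 changed sign. Only the untreated KO over WT values of Dcn, Postn, Cyp1b1 and Abca8a had a call to lose. Those calls stood only with the sex of the mouse as replicate block, and there for Dcn, Cyp1b1 and Abca8a. The other values that kept their status were uncalled before and after. The untreated KO over WT fold change stayed positive for all 7 in every limma fit of that comparison. Low reads limit Cyp1b1, Abca8a, Lum and Col6a5 in WT untreated islets, and 2 mice per genotype limit every comparison.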
